A study of Homo sapiens with 88 samples.

Results

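The genes described here encode the machinery of regulated vesicle release. They are the synaptotagmins (SYT), syntaxins (STX), vesicle-associated membrane proteins (VAMP), complexins (CPLX), RIM scaffolds (RIMS), syntaxin binding proteins (STXBP) and SV2 vesicle proteins, together with UNC13A to UNC13D, DOC2A, DOC2B and RAB3A to RAB3D. They were found by symbol in the array annotation, among probe sets assigned to 1 gene, and 63 genes with 148 probe sets matched. A gene was kept where the mean of at least 1 group exceeded the median of all values, 7.41 on the log2 scale, which left 59 of 63, out of 15352 genes kept in all. Those not kept were STX11, SYT3, SYT8 and UNC13C, whose highest group means were 6.50, 7.21, 7.35 and 7.32. The kept genes nearest to the limit were VAMP5 and SYT12, whose highest group means were 7.58 and 7.73.

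RNA from 9 established small cell lung cancer (SCLC) lines was hybridised to 88 Affymetrix arrays of the HG-U133 Plus 2.0 design. Each line received the vehicle DMSO or an agent that the sample titles call 552A. The treatment protocol names GSK2879552 at 1 µM, which inhibits LSD1, a histone demethylase, but no label states that 552A is this compound. COLO668, NCI-H146, NCI-H446, NCI-H510, NCI-H526 and SHP-77 were followed for 2, 4 and 7 days in both arms, and H1417, H2171 and H69 for 4 days in both arms, giving 42 groups of line, arm and day. All cells grew in RPMI with serum, 39 groups held 2 arrays, 2 groups held 3 and 1 group held 4. A response is 552A minus DMSO on the log2 scale, averaged over the days of a line, and was called at an adjusted p below 0.05 (limma, Benjamini-Hochberg over 15352 genes). SE is the standard error of that fit. Whether replicate arrays stand for separate cultures is not labelled, so the p-values measure only the spread between these arrays, possibly technical. Values come from 1 probe set per gene, and levels are compared between lines and arms, never between genes. In an RNA extract, fewer cells with a transcript and less transcript per cell cannot be told apart.

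Neurons and neuroendocrine cells release transmitters and hormones when vesicles fuse with the plasma membrane. Fusion is driven by a SNARE bundle in which a vesicle VAMP protein zips together with a plasma membrane syntaxin and SNAP25. Syntaxin binding proteins of the Munc18 type and UNC13 proteins prepare the bundle, complexins clamp it, and synaptotagmins sense the calcium that triggers fusion. RAB3 proteins and RIM scaffolds bring vesicles to the release site. SCLC cells commonly carry neuroendocrine features, including secretory vesicles, and the study asked how LSD1 inhibition changes gene expression in such lines.

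Of 6 neuroendocrine markers examined, INSM1, UCHL1, CHGA and NCAM1 were far above the median of all values, 7.41, in all lines, while SYP was near it and DDC was low in some lines. Under DMSO, mean log2 signals over the 9 lines lay between 12.36 and 13.80 for INSM1, between 13.05 and 14.60 for UCHL1, between 10.78 and 13.57 for CHGA and between 10.74 and 12.77 for NCAM1. The vesicle protein SYP lay between 7.66 and 8.09. DDC, an enzyme of amine synthesis, was at 6.51 in NCI-H526, 7.14 in NCI-H446 and 8.45 in H2171 against 12.83 to 13.87 in the others. POU2F3, a tuft cell transcription factor, was at 12.48 in NCI-H526 and at 4.54 to 4.79 elsewhere. NCI-H446 stood apart with EPCAM at 6.71 and the endothelial cadherin CDH5 at 10.91, although PECAM1 was at 8.36 there and within 8.06 to 8.40 in all lines. The fibroblast collagen COL1A2 was at 12.00 in H69 and 6.95 to 8.96 elsewhere, while COL1A1 was at 7.04 or below in all lines. The leukocyte marker PTPRC lay between 4.59 and 5.37. On 5 arrays of day 7, ACTB signal from the 3' probe set exceeded the 5' one by more than 0.8, a sign of shortened RNA. They were SHP-77 DMSO replicate 1 at 1.67, SHP-77 552A replicates 1 and 2 at 0.893 and 0.880, COLO668 DMSO replicate 1 at 1.11 and COLO668 552A replicate 2 at 1.34. A further array, NCI-H446 DMSO day 4 replicate 2, had a narrow interquartile range of 2.56. Many results in these 3 lines are given below with and without these 6 arrays, including each named call that ended. A result given without a second value may also have moved.

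STX1A, RAB3B, SYT4 and STX2 are shown with the 250 bases before their annotated start, to give the sequence context of genes that fell in several lines (STX1A, RAB3B), fell in some lines and rose in another (SYT4), or rose in several (STX2). Sequences are from RefSeq on GRCh38.p14, 5' to 3' on the gene's strand, which is the minus strand for all of them. They lie at chr7:73719670-73719919 for STX1A, chr1:51990701-51990950 for RAB3B, chr18:43277491-43277740 for SYT4 and chr12:130839251-130839500 for STX2. Capitals mark GGGCGG, the core of a GC box, on either strand.
STX1A: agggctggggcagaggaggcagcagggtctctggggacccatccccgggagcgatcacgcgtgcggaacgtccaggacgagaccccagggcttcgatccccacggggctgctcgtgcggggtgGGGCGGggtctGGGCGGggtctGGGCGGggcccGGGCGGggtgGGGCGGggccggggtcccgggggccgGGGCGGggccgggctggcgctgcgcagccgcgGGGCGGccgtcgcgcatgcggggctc
RAB3B: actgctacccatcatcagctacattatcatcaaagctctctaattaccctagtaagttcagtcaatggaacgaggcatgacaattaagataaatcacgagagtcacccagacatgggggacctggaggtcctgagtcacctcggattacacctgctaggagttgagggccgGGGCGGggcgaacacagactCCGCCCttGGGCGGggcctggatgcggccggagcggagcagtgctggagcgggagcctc
SYT4: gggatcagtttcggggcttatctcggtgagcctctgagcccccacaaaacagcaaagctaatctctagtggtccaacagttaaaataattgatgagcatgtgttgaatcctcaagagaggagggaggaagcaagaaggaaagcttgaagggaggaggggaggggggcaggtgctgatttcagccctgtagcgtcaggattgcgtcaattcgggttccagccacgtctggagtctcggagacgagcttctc
STX2: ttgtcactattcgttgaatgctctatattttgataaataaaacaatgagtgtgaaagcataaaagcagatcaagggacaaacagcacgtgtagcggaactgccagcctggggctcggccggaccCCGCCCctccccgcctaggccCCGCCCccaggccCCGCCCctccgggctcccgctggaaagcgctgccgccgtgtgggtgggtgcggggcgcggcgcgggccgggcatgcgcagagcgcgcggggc
The letters occurred 7 times before STX1A, 3 times before RAB3B, 3 times before STX2 and 0 times before SYT4. Among all 35116 annotated starts of 27305 genes, 42.6% held at least 1 copy in the same window, against 45 of 70 starts, 64.3%, of the 47 kept exocytosis genes in the promoter table. These counts describe letters in the window and no binding was measured.

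The first comparison asked how the untreated lines differ in their release machinery. Mean DMSO levels at day 4, the day that all lines share, differed between the 9 lines for 58 of 59 genes (limma moderated F test, adjusted p below 0.05), where 96.7% of all genes were called. Each mean rests on 2 arrays, or 3 in NCI-H446, among them the doubted DMSO day 4 replicate 2. No NCI-H446 level is given here without that array. The SD within these groups had a median of 0.08, a 0.9 quantile of 0.26 and a highest value of 0.87. SYT15 was the exception, with means between 9.02 and 9.35. The widest range was that of SYT4, a synaptotagmin of dense core vesicles, from 5.85 in NCI-H526 to 12.81 in SHP-77, and its next lowest mean was 10.04 in H1417. SYT13, an atypical synaptotagmin, was at 6.52 in H69 and 6.86 in H2171 and between 10.30 and 12.93 in the other lines. VAMP8, a SNARE of endosomes and of exocrine granules, split the lines as well. It was at 5.75 in H2171, 5.80 in H1417, 5.95 in NCI-H446 and 7.12 in H69, against 9.71 to 11.59 in the remaining lines. SYT6 was at 10.74 in NCI-H526 and 10.71 in NCI-H446 and between 6.30 and 7.37 elsewhere.

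SV2B, a vesicle membrane glycoprotein, separated into a high set of lines, with means of 11.00 in H1417, 10.91 in H69, 10.80 in COLO668 and 9.98 in NCI-H146, and a low set between 6.60 and 7.23 in NCI-H510, NCI-H526, NCI-H446 and H2171. SHP-77 was between them at 8.57. RAB3B, a vesicle GTPase, was at 10.03 to 10.94 in SHP-77, NCI-H510, COLO668 and NCI-H146, at 9.09 in H2171 and at 6.89 to 7.58 in the other lines. SYT17 ranged from 7.52 in NCI-H526 to 12.69 in NCI-H510, and STXBP6, which binds syntaxin as a soluble regulator, from 6.39 in NCI-H526 to 10.86 in H69. Core genes of synaptic release differed between the lines as well. SYT1, the fast calcium sensor, ranged from 9.26 in NCI-H526 to 12.85 in H1417, and CPLX2 from 7.08 in NCI-H526 to 10.89 in SHP-77. STX1A, the plasma membrane syntaxin of synapses, lay between 9.34 and 10.98, SV2A between 9.12 and 11.14 and UNC13A, which opens syntaxin for priming, between 8.65 and 9.74. VAMP2, the synaptic vesicle SNARE, lay between 8.47 and 9.32, CPLX1 between 9.18 and 10.12 and RAB3A between 8.22 and 9.47. VAMP1 ranged from 7.93 to 9.93, DOC2A from 7.78 to 9.37, RIMS2 from 7.55 in H2171 to 10.45 in H1417, RIMS1 from 6.03 in SHP-77 to 8.31 in H1417, and SV2C from 6.29 to 7.39. NCI-H526 had the lowest mean of the 9 lines for SYT1, SYT4, SYT17, STXBP6, STX1A, CPLX1, CPLX2, UNC13A, SV2C, RAB3C and SYT2. The same line had the highest mean for VAMP8, SYT6, VAMP4, VAMP7, SYT5 and VAMP5. H69 was lowest for SYT13, STX8, VAMP3, SYT11, STXBP3, STX12, STX16, RAB3D, SYT16, SYT5 and RIMS4. Low levels were therefore not particular to NCI-H526, and the share of all genes lowest in each line was not computed.

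**Figure D1:**
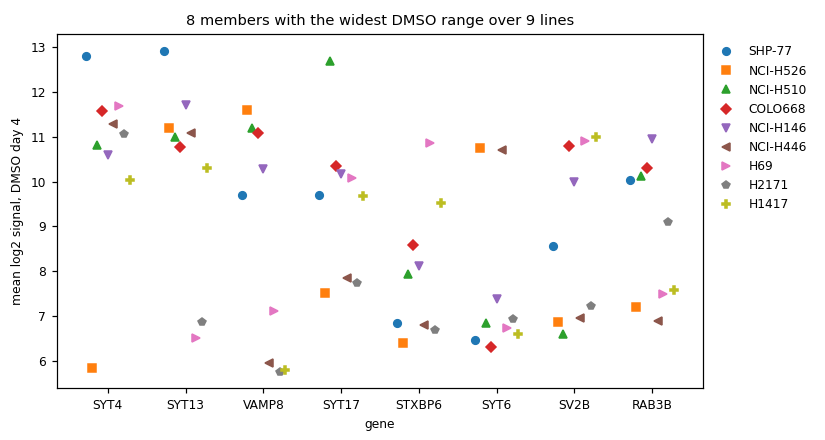
Mean log2 signal under DMSO at day 4 (vertical axis) for the 8 exocytosis genes with the widest range over the 9 lines (horizontal axis), 1 symbol per line. SYT4 is at 5.85 in NCI-H526 and at 10.04 or above in the other lines, and SV2B and VAMP8 separate into high and low lines.

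The second comparison asked how each line responded to 552A. Over 9 lines, 531 pairs of gene and line were tested; 22 rose and 53 fell, that is 4.14% and 9.98%, against 5.94% and 4.38% of all pairs in the whole table. The changes were mostly small, and the largest was a 2.99-fold fall. Of the 59 genes, 35 were called in at least 1 line: 10 were only ever called higher, 21 only lower and 4 in both directions (SYT4, CPLX1, CPLX2 and STX19), while 24 were called in no line. As shares, 59.3% of the 59 genes were called in at least 1 line, beside 49.3% of all genes. Genes called only higher were 16.9% beside 21.8%, only lower 35.6% beside 19.1%, and in both directions 6.78% beside 8.36%. In COLO668 6 genes rose and 10 fell, 10.2% and 16.9% of the 59, where 12.3% and 8.81% of all genes did. In NCI-H526 3 rose and 11 fell, 5.08% and 18.6% beside 10.7% and 10.5% of all genes, and in NCI-H510 2 rose and 10 fell, 3.39% and 16.9% beside 8.6% and 6.44%. In NCI-H446 3 rose and 8 fell, 5.08% and 13.6% beside 4.31% and 1.28%, and in NCI-H146 4 rose and 5 fell, 6.78% and 8.47% beside 4.27% and 2.12%. In H1417 1 rose and 5 fell, 1.69% and 8.47% beside 5.53% and 3.71%. Counts were low in the remaining lines. SHP-77 had 1 up and 2 down, 1.69% and 3.39% beside 3.87% and 4.27%, H69 also 1 up and 2 down beside 2.44% and 1.73%, and H2171 had 1 up and 0 down beside 1.43% and 0.573%. The falling share was below that of all genes in SHP-77 and H2171 and above it in the other 7 lines, though in H69 it rests on 2 genes. Median responses of the 59 genes lay between -0.04 and 0.01 in the 9 lines, and those of all genes between -0.02 and 0.02.

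**Figure D2:**
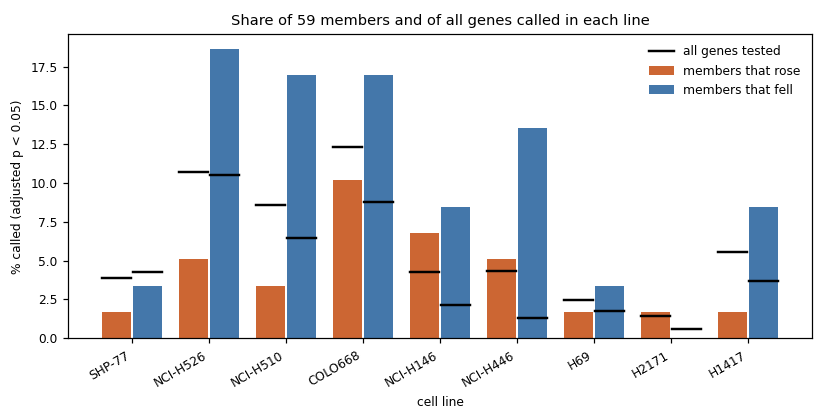
Bars give the share of the 59 exocytosis genes that rose or fell under 552A in each line (adjusted p below 0.05, percent on the vertical axis), and black lines the same share of all genes tested. In NCI-H446, 8 of 59 genes fell where 1.28% of all genes did, while the share that rose was near that of all genes.

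**Figure D3:**
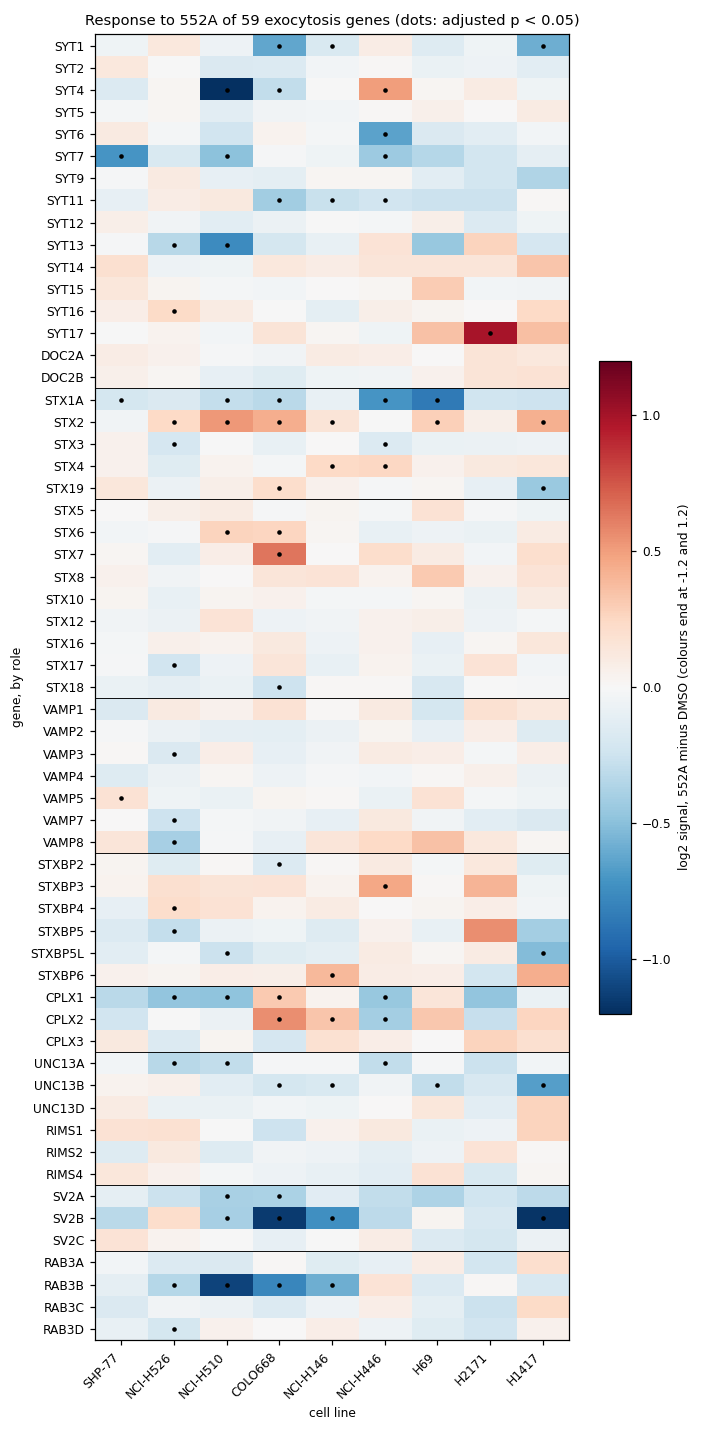
Response to 552A of the 59 genes (rows, by role) in the 9 lines (columns), as log2 signal of 552A minus DMSO, with colours ending at -1.2 and 1.2 and dots where the adjusted p was below 0.05. Blue rows with several dots include STX1A and RAB3B, and STX2 is the row with 6 red dots.

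Synaptotagmins and DOC2 proteins, most of which sense calcium or membrane lipid, gave 3 pairs that rose and 14 that fell over 16 genes, 2.08% and 9.72% of 144 pairs beside the 5.94% and 4.38% of all pairs. SYT4 in NCI-H510 had the largest change of the 59 exocytosis genes. Its log2 signal was 10.76, 10.93 and 11.00 (lowest, median and highest of 6 DMSO arrays) and 8.97, 9.42 and 9.67 (6 arrays under 552A), so that the arms were more than 1 unit apart. The response was -1.58 ± 0.07 (SE, adjusted p = 1.17e-25), a 2.99-fold lower signal, and the daily values were -1.39, -1.41 and -1.94 at days 2, 4 and 7. In COLO668 SYT4 fell by 0.30 (SE 0.07, adjusted p = 0.00105), from a median of 11.65 to 11.35, and the ranges overlapped, 11.50 to 11.86 against 11.25 to 11.56. In NCI-H446 the direction was opposite: SYT4 rose by 0.50 ± 0.07 (SE, adjusted p = 2.15e-07). There it spanned 11.02 to 11.60 on 7 DMSO arrays and 11.70 to 12.05 on 6 arrays under 552A, with no overlap. Without the 6 arrays in doubt the NCI-H446 value was 0.45 and that of COLO668 -0.32. In the other 6 lines SYT4 did not pass the test, with values from -0.16 in SHP-77 to 0.10 in H2171. SYT4 was read from 1 probe set.

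SYT7, a slow calcium sensor, fell in 3 lines. In SHP-77 it was 9.56, 9.96 and 10.80 (lowest, median, highest of 6 DMSO arrays) and 8.97, 9.37 and 10.07 (8 arrays under 552A). These ranges overlapped. The response within days was -0.71 ± 0.09 (SE, adjusted p = 6.79e-08), with -0.80, -0.59 and -0.73 at days 2, 4 and 7, and -0.69 without the 3 doubted SHP-77 arrays and the other 3. It fell by 0.49 in NCI-H510 (SE 0.09) and by 0.44 in NCI-H446 (SE 0.09). The other 2 SYT7 probe sets above the filter had the same sign in these 3 lines and smaller values, from -0.30 to -0.07. SYT13 fell by 0.75 (SE 0.09, adjusted p = 5.83e-09) in NCI-H510, from a range of 10.73 to 11.22 under DMSO to 10.09 to 10.46 under 552A, and by 0.33 (SE 0.09) in NCI-H526. Its second probe set gave -0.53 and -0.27 in those lines.

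SYT1 fell in COLO668, H1417 and NCI-H146. In COLO668 its 6 DMSO arrays spanned 9.94 to 10.30 and its 6 arrays under 552A spanned 9.29 to 9.73, without overlap and with a response of -0.62 ± 0.06 (SE, adjusted p = 3.46e-13). In H1417 the DMSO arrays read 12.81 and 12.88 and those under 552A 12.24 and 12.27, a response of -0.59 ± 0.10 (SE, adjusted p = 9.80e-06). The change in NCI-H146, -0.19 ± 0.06 (SE, adjusted p = 0.0333), was lost in 8 of 12 fits that left out 1 of its arrays, with the highest adjusted p, 0.197, without 552A day 4 replicate 1. The other SYT1 probe set gave -0.63 and -0.53 in COLO668 and H1417. SYT6 fell by 0.64 in NCI-H446 (SE 0.10, adjusted p = 1.07e-05), where it spanned 10.12 to 11.04 under DMSO and 9.20 to 10.62 under 552A, with overlap, and it was -0.59 without the doubted arrays. SYT17 rose by 0.99 ± 0.22 (SE, adjusted p = 0.00466) in H2171, where the DMSO arrays read 7.56 and 7.89 and those under 552A 8.60 and 8.84. Its second probe set gave 1.50 there, but the call ended without DMSO replicate 1 (0.82, adjusted p = 0.171) and without 552A replicate 2 (0.87, adjusted p = 0.141). SYT16, a synaptotagmin without calcium binding, rose by 0.23 (SE 0.08, adjusted p = 0.0319) in NCI-H526, a call lost in 9 of 13 fits without 1 array (adjusted p = 0.193 without 552A day 7 replicate 1).

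Plasma membrane syntaxins moved in both directions, with 9 pairs up and 8 down over 5 genes, among 45 pairs. The falls were 17.8% of these pairs beside 4.38% of all pairs, and the share of rises was also above the 5.94% of all pairs. STX1A fell in 5 of 9 lines and its response was negative in all 9. The largest was in H69, where the DMSO arrays read 10.16 and 10.20 and those under 552A 9.30 and 9.37, a response of -0.85 ± 0.12 (SE, adjusted p = 9.45e-07). NCI-H446 followed with 9.71, 9.89 and 10.29 (lowest, median, highest of 7 DMSO arrays) against 9.01, 9.25 and 9.30 (6 arrays under 552A), a response of -0.71 ± 0.07 (SE, adjusted p = 7.66e-12) that was -0.75 without the doubted arrays. The arms did not overlap in either line. In COLO668 the response was -0.33 ± 0.07 (SE, adjusted p = 0.000271), or -0.24 without the doubted arrays, and in NCI-H510 it was -0.28 ± 0.07 (SE, adjusted p = 0.00201); both had overlapping arms. The call in SHP-77, -0.21 ± 0.07 (SE, adjusted p = 0.0328), did not hold without the doubted arrays, at -0.16 (adjusted p = 0.0730). STX1A was read from 1 probe set.

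STX2, a syntaxin of epithelial and other membranes also known as epimorphin, rose in 6 lines and fell in none. In NCI-H510 it spanned 9.69 to 9.77 under DMSO and 10.18 to 10.33 under 552A, a response of 0.52 ± 0.05 (SE, adjusted p = 2.63e-13). In COLO668 it spanned 9.18 to 9.32 against 9.56 to 9.94, with 0.44 ± 0.05 (SE, adjusted p = 8.00e-11), and in H1417 the arrays read 10.96 and 10.99 against 11.40 and 11.41, with 0.43 ± 0.08 (SE, adjusted p = 0.000115). The arms were separate in these 3 lines. Smaller rises were called in NCI-H526 (0.23 ± 0.05), H69 (0.28 ± 0.08) and NCI-H146 (0.15 ± 0.05), while SHP-77 was at -0.04, NCI-H446 at -0.00040 and H2171 at 0.07. The calls in H69 and NCI-H146 were lost in 3 of 4 and 10 of 12 fits without 1 array, with the highest adjusted p at 0.535 (without H69 552A replicate 1) and 0.169 (without NCI-H146 DMSO day 4 replicate 2). The second STX2 probe set gave 0.20 in NCI-H510 and 0.36 in H1417 but -0.04 in COLO668 and -0.26 in H69, and the mean of both was 0.01 in H69 (adjusted p = 1.00). Among syntaxins of internal membranes 3 pairs rose and 2 fell over 9 genes, 3.70% and 2.47% of 81 pairs, both below the shares of all pairs. STX7, of late endosomes, rose in COLO668 by 0.64 ± 0.07 (SE, adjusted p = 5.02e-10), from 8.42 to 9.15 under DMSO to 9.20 to 9.77 under 552A, with no overlap. STX6, of the trans-Golgi network, rose by 0.27 ± 0.05 in NCI-H510, from a range of 9.75 to 10.00 to one of 10.02 to 10.18, but the mean of its probe sets was at 0.12 (adjusted p = 0.159).

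Among the 3 SV2 genes 6 of 27 pairs fell (22.2%) and none rose, beside 4.38% and 5.94% of all pairs. These 6 were all from SV2A and SV2B. In H1417 the SV2B arrays read 10.80 and 11.19 under DMSO and 9.74 and 9.90 under 552A, a response of -1.18 ± 0.20 (SE, adjusted p = 2.08e-05). In COLO668 SV2B was 10.54, 10.76 and 10.98 (lowest, median, highest of 6 DMSO arrays) against 9.0, 9.69 and 9.84 (6 arrays), a response of -1.15 ± 0.12 (SE, adjusted p = 2.21e-11), and -1.08 without the doubted arrays. In NCI-H146 it spanned 9.85 to 10.26 and 8.86 to 9.81, with -0.74 ± 0.12 (SE, adjusted p = 5.45e-06). None of these 3 lines had overlapping arms, and all were among the 4 with a high untreated SV2B level. The fourth, H69, gave 0.03, with DMSO arrays at 10.86 and 10.95 and both arrays under 552A at 10.94. In NCI-H510, where SV2B was low, it fell from 6.64 to 6.24 (mean log2 signal), a call lost in 2 of 12 fits without 1 array, such as DMSO day 4 replicate 2 (adjusted p = 0.104). The second SV2B probe set gave -0.50 in H1417, -0.39 in COLO668 and -0.18 in NCI-H146. SV2A fell by 0.39 in NCI-H510 and 0.38 in COLO668 (both SE 0.10), and its values in the other lines were -0.37 to -0.10, none of them called. SV2C was called in no line, with values from -0.21 to 0.16.

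RAB3 GTPases gave 5 falling pairs of 36 (13.9%) and no rising one, beside 4.38% and 5.94% of all pairs. Of these 5, 4 were from RAB3B. In NCI-H510 RAB3B was 9.83, 10.13 and 10.36 (lowest, median, highest of 6 DMSO arrays) and 8.60, 9.02 and 9.29 (6 arrays under 552A), so the arms were separate. The response was -1.12 ± 0.09 (SE, adjusted p = 2.00e-14), a 2.17-fold lower signal, and all 5 RAB3B probe sets lay between -1.12 and -1.01. In COLO668 it spanned 10.00 to 10.39 and 8.34 to 9.92, with -0.78 ± 0.09 (SE, adjusted p = 1.64e-09), or -0.63 without the doubted arrays, and in NCI-H146 it spanned 10.80 to 11.10 and 10.04 to 10.69, with -0.59 ± 0.09 (SE, adjusted p = 5.18e-06). These arms were separate as well. In NCI-H526, where RAB3B was low, it fell by 0.34 (SE 0.09, adjusted p = 0.00324). RAB3A, the main RAB3 of neurons, did not pass the test in any line, with values from -0.22 to 0.20.

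**Figure D4:**
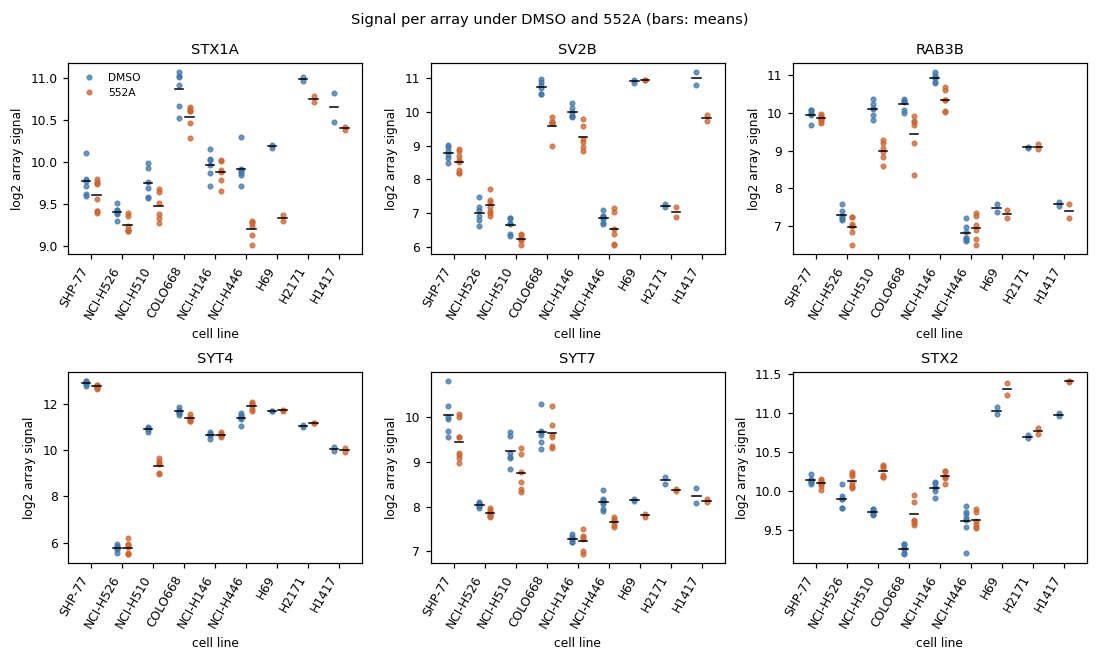
Log2 signal per array (points) with the mean (bars) under DMSO and 552A in each line, for STX1A, SV2B, RAB3B, SYT4, SYT7 and STX2. In NCI-H510 the SYT4 points under 552A, at 8.97 to 9.67, lie below all DMSO points, and in NCI-H446 they lie above them.

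Priming and active zone genes gave 7 falling pairs of 54 and none that rose over 6 genes, all from UNC13A and UNC13B. The falls were 12.96% of these pairs beside 4.38% of all pairs, while 5.94% of all pairs rose. UNC13B, a priming factor that also acts outside synapses, fell in H1417 by 0.66 (SE 0.09, adjusted p = 6.42e-08), where the arrays read 10.33 and 10.50 under DMSO and 9.76 on both arrays under 552A. In H69 its call, -0.30 ± 0.09 (SE, adjusted p = 0.0335), was lost in all 4 fits without 1 of its arrays (adjusted p = 0.300 without DMSO replicate 1). UNC13A fell by 0.34 in NCI-H526 (SE 0.06), 0.29 in NCI-H510 (SE 0.06) and 0.30 in NCI-H446 (SE 0.06). In NCI-H526 it spanned 8.63 to 8.84 under DMSO and 8.26 to 8.59 under 552A, with no overlap, and in the other 2 lines the arms overlapped. The second UNC13A probe set gave -0.19 in NCI-H510 and -0.18 in NCI-H446 but only -0.03 in NCI-H526, so the fall in NCI-H526 rests on 1 probe set. RIMS1, with values from -0.25 to 0.27, and RIMS2, from -0.16 to 0.16, passed in no line.

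Complexins were called in both directions, with 3 pairs up and 4 down of 27 (11.1% and 14.8%), beside 5.94% and 4.38% of all pairs. CPLX2 rose by 0.55 ± 0.08 (SE, adjusted p = 1.87e-07) in COLO668, from 7.70 to 8.10 under DMSO to 8.37 to 8.77 under 552A, and by 0.33 ± 0.08 (SE, adjusted p = 0.00321) in NCI-H146. It fell by 0.41 (SE 0.08, adjusted p = 0.000146) in NCI-H446, from a range of 7.79 to 8.53 to one of 7.34 to 7.76. A second CPLX2 probe set gave 0.019, 0.019 and -0.0049 in these 3 lines, so the change rests on 1 probe set. CPLX1 fell by 0.48 in NCI-H510, 0.47 in NCI-H526 and 0.45 in NCI-H446 (all SE 0.11), with overlapping arms in NCI-H510 and NCI-H526 and separate ones in NCI-H446. Its rise in COLO668, 0.31 ± 0.11 (SE, adjusted p = 0.0383), was lost in 7 of 12 fits without 1 array (adjusted p = 0.284 without DMSO day 7 replicate 2), and was 0.40 without the doubted arrays.

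Vesicle SNAREs gave 1 rising and 3 falling pairs over 7 genes, 1.59% and 4.76% of 63 pairs, so that the falls were near the 4.38% of all pairs and the rises below 5.94%. Syntaxin binding proteins gave 3 rising and 4 falling pairs over 6 genes, 5.56% and 7.41% of 54 pairs. VAMP8 fell by 0.40 (SE 0.12, adjusted p = 0.0123) in NCI-H526, from 11.56 to 11.63 under DMSO to 11.03 to 11.36 under 552A, with no overlap. VAMP5 rose by 0.18 (SE 0.05, adjusted p = 0.0268) in SHP-77, where its arms overlapped, 7.04 to 7.44 against 7.12 to 7.60, and leaving out 1 array ended the call in 5 of 14 fits (adjusted p = 0.172 without 552A day 2 replicate 2). VAMP2, with values from -0.16 to 0.08, VAMP1, from -0.21 to 0.18, and DOC2A, from -0.04 to 0.15, were called in no line. STXBP3, a Munc18 protein of many tissues, rose by 0.46 ± 0.08 (SE, adjusted p = 6.03e-05) in NCI-H446, from 11.24 to 11.77 under DMSO to 11.73 to 12.19 under 552A, with overlap, and was 0.42 without the doubted arrays. STXBP6 rose by 0.39 ± 0.10 (SE, adjusted p = 0.00459) in NCI-H146, from a range of 8.11 to 8.43 to one of 8.29 to 9.07, with overlap, and its other 2 probe sets above the filter gave 0.41 and 0.35. STXBP5, a tomosyn that competes for syntaxin, ranged from -0.41 in H1417 to 0.56 in H2171, where the arrays read 6.75 and 6.83 under DMSO and 7.32 and 7.38 under 552A, and neither value was called.

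Of the 75 called pairs, 52 were called in every fit that left out 1 array of the line. Without the 6 doubted arrays 69 pairs fell and 32 rose, in place of 53 and 22. STX1A in SHP-77 and another pair of calls ended there. STX4 in NCI-H446 went from 0.25 to 0.16 (limma adjusted p = 0.0548) and STXBP2 in COLO668 from -0.16 to -0.09 (limma adjusted p = 0.225). UNC13B in COLO668 went from -0.21 to -0.13 and was still called (limma adjusted p = 0.0328). SV2A in COLO668 went from -0.38 to -0.32 (limma adjusted p = 0.0281) and STX7 from 0.64 to 0.57, both still called. In NCI-H446 CPLX1 went from -0.45 to -0.50, SYT7 from -0.44 to -0.47 and UNC13A from -0.30 to -0.32. Another probe set above the filter existed for 48 of the 75, and in 43 of these every other probe set had the same sign. No arm of a called pair had a mean below 6.09, the lower quartile of a typical array (the median over arrays), which served as the limit for a dim signal.

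The next comparison asked whether the response was shared over lines, with the line as replicate. At day 4, 0 of 59 genes were called (limma, 9 ratios, two-sided), where 0.0521% of all genes were. At an unadjusted p below 0.05 there were 14, which is 23.7% of the genes beside 12.5% of all genes. Of these 14, 11 were lower and 3 higher. The split by direction was not computed for all genes, so it cannot be read as particular to these genes. A fit at the level of arrays, which treats arrays of a line as replicates, called 15. The share of all genes in that fit was not computed, so the 15 cannot be read as particular to these genes. The smallest p was that of SV2A, whose ratio averaged -0.32 ± 0.06 (SE over 9 lines, limma adjusted p = 0.0950), with lower values in 9 of 9 lines, from -0.67 in NCI-H446 to -0.0068 in SHP-77. STX1A had -0.35 ± 0.08 (SE, limma adjusted p = 0.121) and SYT7 had -0.28 ± 0.06 (SE, limma adjusted p = 0.117), each lower in 9 of 9 lines. The ratios of STX1A ran from -0.85 in H69 to -0.04 in NCI-H146. In the other direction STX2 had 0.22 ± 0.06 (SE, limma adjusted p = 0.178) and was higher in 8 of 9 lines. STXBP3 had 0.13 ± 0.05 (limma adjusted p = 0.321) and SYT14 had 0.18 ± 0.08 (limma adjusted p = 0.381), each higher in 7 of 9 lines. None of these 6 passed the adjusted threshold.

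Whether the 6 time course lines differed in response was tested directly. Of 59 genes, 25 had unequal responses (limma moderated F test, adjusted p below 0.05), beside 38.1% of all genes, a similar share. The largest range of responses over the 9 lines was that of SYT4, 2.08 from NCI-H510 to NCI-H446 (equality over 6 lines, adjusted p = 3.65e-23). RAB3B ranged over 1.28 (adjusted p = 2.31e-11), also between time course lines. The ranges of SV2B (1.39), SYT17 (1.04), SYT13 (1.02) and STXBP5 (0.97) each have an end in H1417 or H2171, which had day 4 only and are not in the equality test. Over the 6 time course lines the adjusted p of equality was 4.72e-08 for SV2B, 1.55e-06 for SYT13, 0.904 for SYT17 and 0.416 for STXBP5.

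The last comparison of this set asked whether the response changed from day 2 to day 7. Over the 59 genes and 6 time course lines 3 pairs were called, all in COLO668, where 4.61% of all genes were called. In SHP-77, NCI-H526, NCI-H510, NCI-H146 and NCI-H446 no exocytosis gene was called and 0.111%, 0.508%, 0.15%, 0.0521% and 0.228% of all genes were. RAB3D, a RAB3 of secretory cells, went from -0.19 at day 2 to 0.37 at day 7, a change of 0.57 ± 0.14 (SE, adjusted p = 0.0108). Its day 7 arrays read 9.88 and 9.94 under DMSO and 10.32 and 10.25 under 552A. RAB3B went from -0.49 to -1.27, a change of -0.78 ± 0.23 (SE, adjusted p = 0.0367), with day 7 arrays at 10.07 and 10.00 under DMSO and 9.19 and 8.34 under 552A. The array at 8.34 was the one with an ACTB difference of 1.34, and without the doubted arrays the RAB3B change was -0.32 (adjusted p = 0.342). STX6, named as the third call and outside the rule for named genes, changed by 0.39 ± 0.12 (SE, adjusted p = 0.0417). Leaving out 1 array of COLO668 ended the RAB3B call in 7 of 12 fits (up to adjusted p = 0.444, without 552A day 7 replicate 2), the STX6 call in 5 (up to 0.236, without 552A day 2 replicate 1) and the RAB3D call in 2 (up to 0.0849, without DMSO day 2 replicate 2). Without the doubted arrays 9 pairs were called in place of 3, and averaging a gene's probe sets left 0, with RAB3D at 0.21 (adjusted p = 0.352), RAB3B at -0.64 (adjusted p = 0.0751) and STX6 at 0.05 (adjusted p = 0.897).

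**Figure D5:**
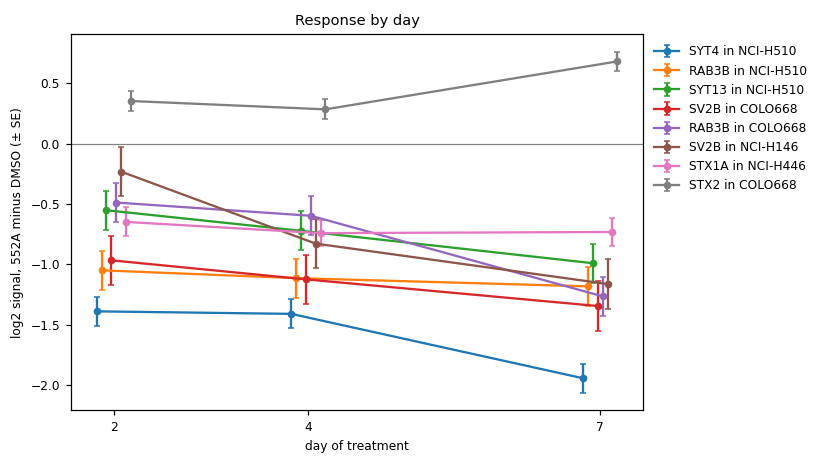
Response to 552A (552A minus DMSO, log2 signal, ± SE) at days 2, 4 and 7 for the leading pairs of gene and line. SYT4 in NCI-H510 runs from -1.39 to -1.94, while STX1A in NCI-H446 stays between -0.74 and -0.65 and STX2 in COLO668 lies above 0 on each day.

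Genes that work with this machinery were read from a separate list of 55 partners, of which 52 were kept. They include SNAP25, vesicle proteins, active zone scaffolds, transporters and regulators of RAB3. Over 468 pairs of gene and line, 33 rose (7.05%) and 49 fell (10.5%), beside the same 5.94% and 4.38% of all pairs. SLC18A1, which loads monoamines into vesicles, fell in 7 lines and rose in none. The largest fall was in H1417, from 8.55 and 8.81 under DMSO to 6.72 and 6.81, a response of -1.91 ± 0.20 (SE, adjusted p = 1.42e-10), followed by NCI-H526 at -1.33 ± 0.11 (SE, adjusted p = 2.51e-14), where the arms spanned 8.89 to 9.48 and 7.19 to 8.56. CACNA1A, the pore of the P/Q-type calcium channel that opens at release sites, fell in 5 lines. In SHP-77 it was 10.18, 10.74 and 11.38 (lowest, median, highest of 6 DMSO arrays) against 8.72, 9.38 and 9.93 (8 arrays), a response of -1.36 ± 0.13 (SE, adjusted p = 7.70e-12), and in H1417 it was -1.37 ± 0.23 (SE, adjusted p = 1.17e-05). Without the doubted arrays CACNA1A in SHP-77 was at -1.36.

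SNAP25, the SNARE partner of STX1A, fell in NCI-H510 and was called in no other line. There it spanned 11.32 to 11.64 under DMSO and 10.31 to 11.16 under 552A, a response of -0.72 ± 0.05 (SE, adjusted p = 1.53e-16). SYN1, which tethers vesicles to actin, fell in 4 lines, by 0.55 in NCI-H510 and 0.41 in NCI-H446 (both SE 0.07), and the vesicle protein SYP fell in 3, by 0.23 to 0.31. In COLO668 neither call held without the doubted arrays, with SYN1 at -0.19 (adjusted p = 0.0580) and SYP at -0.17 (adjusted p = 0.0853). SYNPR, a relative of SYP, fell by 1.63 (SE 0.23, adjusted p = 2.13e-07) in H1417, from 7.77 and 7.78 to 6.02 and 6.28, and by 0.75 in NCI-H446. CADPS, a priming factor for dense core vesicles, rose by 0.61 in NCI-H526 and 0.62 in NCI-H446 and fell by 0.82 in NCI-H510 (all SE 0.12). SYTL5, a RAB27 effector, rose by 1.39 ± 0.10 (SE, adjusted p = 3.10e-16) in COLO668, where its 6 DMSO arrays spanned 6.98 to 7.74 and its 6 arrays under 552A 7.83 to 9.78. Without the doubted arrays NCI-H446 gave 0.52 for CADPS, -0.66 for SYNPR and -0.45 for SYN1, and COLO668 gave 1.33 for SYTL5. The active zone scaffold BSN passed in no line, with values from -0.17 to 0.13. In NCI-H510, SYT4, RAB3B, SYT13, SV2A, CPLX1, UNC13A, STX1A, SNAP25, SYN1, SYP and CADPS were all called lower, and 10 of 59 exocytosis genes and 10 of 52 partners fell there, beside 6.44% of all genes.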

How the data were processed

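The authors deposited log2 expression values for 54675 probe sets on 88 arrays, and per the labels' protocols RNA was labelled by standard Affymetrix procedures. For the program, background correction and scaling: not given in the sources used here. Array medians lay between 7.36 and 7.46, so the deposited values were used unscaled. Precision is limited by the number of arrays.

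The platform annotation, which can be old, assigned 1 gene to 41091 probe sets. Each gene was read from its kept probe set of highest mean, with sets ending in _x_at used where no other existed. limma 3.58.1 in R 4.3.3 was fitted with 42 group means and 46 residual degrees of freedom, pooling the spread over lines. Tables used Python 3.11.15, pandas 2.3.3 and numpy 2.4.6. Scripts were tested on simulated data.

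The members and lists were chosen with earlier results of these data known, roles included. Named with values were a core of release genes, the 2 strongest called genes per direction and line, those with the widest ranges of response (6) or DMSO level (8), the 3 per direction with the smallest shared p, at most 2 changes with time per line, and 9 partners. SYT15, STX19, SYT12, STX4, STXBP2, the 4 genes not kept, for time STX6 and, under the replicate block, STX3, STXBP4, SYT11 and VAMP3 lie outside that rule and were chosen after their values were seen. The same holds for genes named only as lowest or highest in NCI-H526 or H69 under DMSO.

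Correlations of same-numbered replicates between groups of a time course line ran from -0.40 to 0.54, with medians of 0.02 to 0.17 by line, and were 0.19, -0.08 and -0.14 in H69, H2171 and H1417. Since not every one was above 0.1, the numbers were taken to pair no arrays. The alternatives were quantile normalization, no filter and a stricter filter on dim probe sets, averaged probe sets, an intensity trend, the replicate block, each array left out, each line left out (shared response), DMSO levels over all days, a line's own arrays, single days, a fit at array level and the removal of 6 arrays.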

Additional observations from a re-analysis of the deposited data

Results flagged for a closer look

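The responses of 25 exocytosis genes differed between the 6 time course lines by the test of the difference itself (limma moderated F test on the day-averaged responses). This was 25 of 59 beside 38.1% of all genes, a similar share, so the count is not particular to these genes. Among synaptotagmins the adjusted p was 3.65e-23 for SYT4, 8.34e-11 for SYT1, 1.55e-06 for SYT13, 7.35e-06 for SYT11, 3.46e-05 for SYT7 and 0.000326 for SYT6. Vesicle proteins and GTPases gave 2.31e-11 for RAB3B, 4.72e-08 for SV2B and 0.0231 for RAB3D. Among plasma membrane syntaxins it was 4.67e-11 for STX2, 6.74e-06 for STX1A, 0.0103 for STX4 and 0.0195 for STX3. Syntaxins of internal membranes gave 2.17e-07 for STX7, 6.03e-06 for STX6 and 0.0147 for STX17. The complexins CPLX2 and CPLX1 stood at 7.08e-10 and 3.09e-05. For priming factors the values were 0.000652 for UNC13A and 0.00266 for UNC13B. Vesicle SNAREs had 0.0219 for VAMP8, 0.0308 for VAMP5 and 0.0411 for VAMP7, and syntaxin binding proteins had 0.0292 for STXBP3 and 0.0333 for STXBP2.

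SYT4 combined a fall of 1.58 in NCI-H510 with a rise of 0.50 in NCI-H446, and CPLX2 a rise of 0.55 in COLO668 with a fall of 0.41 in NCI-H446. The second CPLX2 probe set gave 0.019 in COLO668 and -0.0049 in NCI-H446, so its changes rest on 1 probe set. In COLO668 the response changed from day 2 to day 7 for RAB3D (limma adjusted p = 0.0108), RAB3B (limma adjusted p = 0.0367) and STX6 (limma adjusted p = 0.0417). The day 7 arrays of COLO668 include 2 with a high ACTB 3' minus 5' difference. Without the 6 doubted arrays the changes of RAB3D and STX6 were 0.57 and 0.34 and were called, while that of RAB3B was -0.32 and did not (limma adjusted p = 0.342). Leaving out 1 COLO668 array ended the call of STX6 in 5 of 12 fits, of RAB3D in 2 and of RAB3B in 7, and averaged probe sets ended all 3. In 9 sets of values, from arrays of a group or from the lines, no value stood apart from the others by Dixon's criterion.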

How the results depend on the processing

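Among the named results, quantile normalization ended 3 calls, the intensity trend 1, the mean of probe sets 14 and no filter 7, all with the sign kept. A stricter filter, a group mean above the 75th percentile, kept 44 of 59 genes; 77 named results could be tested and none lost its call, 4 genes were called in H1417 in place of 6, and 43 differed in DMSO level in place of 58. Leaving out each line left the shared response at 0 genes, and DMSO levels over all days of the 6 time course lines differed for 59. Without a filter on dim probe sets 2 genes were called in H2171 in place of 1, and the mean of all probe sets left 0 changes with time. Without the 6 doubted arrays there were 22 called genes in NCI-H526, 5 in H69 and 3 in H2171, in place of 14, 3 and 1. No array of these 3 lines was removed, and the spread is pooled over lines. COLO668 went from 16 to 22, NCI-H510 from 12 to 15, NCI-H446 from 11 to 14, SHP-77 from 3 to 4 and NCI-H146 from 9 to 10. H1417 stayed at 6. Over all lines 69 pairs fell and 32 rose in place of 53 and 22, and 9 changes with time were called. Shares of all genes were not computed for this fit. A line's own arrays alone gave 19 in NCI-H510, 5 in NCI-H446 and 3 in H1417. Day 2 alone gave 1 in SHP-77, 1 in NCI-H526, 4 in NCI-H510, 5 in COLO668, 1 in NCI-H146 and 1 in NCI-H446. Of all 15352 genes, 67, 706, 539, 378, 160 and 76 were called in these lines, in the same order. Day 4 alone gave 0 in SHP-77, 0 in NCI-H526, 5 in NCI-H510, 8 in COLO668, 2 in NCI-H146 and 13 in NCI-H446. Of all genes, 77, 908, 722, 657, 167 and 1638 were called there. The doubted DMSO array of NCI-H446 is from day 4. At day 4 over all lines 26 pairs fell and 12 rose. Day 7 alone gave 1 in SHP-77, 7 in NCI-H526, 8 in NCI-H510, 17 in COLO668, 3 in NCI-H146 and 4 in NCI-H446. Of all genes, 1541, 1805, 968, 4084, 379 and 477 were called there. The shared response at array level called 15 genes, with the share of all genes in that fit not computed. The shared response of SYT14 turned to -0.035 at day 7 over 6 lines (limma adjusted p = 0.884). Where the cause of these shifts is not given by fewer arrays, it was not tested. With the replicate number as a block, 79 named results kept their call and 5 lost it (STX3 and SYT11 in NCI-H446, STXBP4, STXBP5 and VAMP3 in NCI-H526), and 54 pairs fell and 23 rose. With 1 array left out in turn, counts ran from 1 to 7 in SHP-77 (7 without DMSO day 7 replicate 2), 10 to 18 in NCI-H526, 11 to 14 in NCI-H510, 13 to 18 in COLO668, 6 to 9 in NCI-H146, 8 to 14 in NCI-H446, 1 to 3 in H69, 0 to 1 in H2171 and 4 to 6 in H1417. Over all lines 50 to 65 pairs fell and 20 to 26 rose, 77 to 92 partner pairs were called, and the shared test called 0 genes in each fit. Responses were unequal for 22 to 29 genes, DMSO levels for 58 to 59, and changes with time were called for 0 to 5 pairs.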
